A study of Bos taurus with 6 samples.

Results

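The miR-33 family, microRNAs (miRNAs) that lie in introns of the sterol regulatory element binding factor genes, was examined in primary bovine myoblasts treated with resveratrol (RSV). Members were chosen by name, as bta-miR-33a and bta-miR-33b with or without an arm suffix. Of 765 miRNAs in the deposited table, 1 member, bta-miR-33a, was analysed, and bta-miR-33b was not analysed here. The myoblasts, which are muscle precursor cells that fuse into fibers, came from the longissimus dorsi muscle of fetal beef cattle. The RSV group was 3 cultures kept in differentiation medium with 20 μM RSV, a plant polyphenol, dissolved in DMSO, and the DMSO group was 3 cultures given the solvent alone in the same medium. Differentiation lasted 4 days, and the study's methods describe the 3 cultures of a group as independent cell collections. No allele or other treatment was named in the labels.

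The animal miR-33 miRNAs are made from introns of the genes whose proteins, the SREBP factors, switch on cholesterol and fatty acid synthesis. miR-33a is carried by SREBF2, whose protein drives the sterol synthesis genes when membrane sterol is low, and miR-33b by SREBF1, whose protein acts more on fatty acid synthesis. The miRNAs are known to repress transporters that export cholesterol and enzymes that burn fatty acids, so that host and miRNA act together to hold lipid in the cell. In the RefSeq annotation of ARS-UCD2.0, MIR33A lies within the bounds of SREBF2 and MIR33B within those of SREBF1. This assembly is not the one the study mapped to (UMD_3.1.1), so it was used for neighbourhood alone.

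The deposited table gives the authors' mean of normalized reads per group, which are reads divided by a size factor that scales each library for depth. Each mean was written as a sum of 3 whole read numbers over 3 size factors, which gave back the reads of single libraries for 567 of 765 miRNAs and for 20187 of 20459 mRNAs with reads. These libraries carry no replicate number and are named A, B and C by falling size factor within a group, and the miRNA and mRNA libraries are not linked to each other. RSV libraries A, B and C of the miRNA set had size factors of 1.54, 1.29 and 0.935, above those of the DMSO libraries at 0.922, 0.823 and 0.729, so depth moved with the group. The mRNA size factors were 1.09, 1.08 and 1.05 in RSV libraries A, B and C. Those of the DMSO libraries were 0.964, 0.960 and 0.886, so mRNA depth also moved with the group, over a narrower range. The labelled cell type was checked on miRNAs of muscle cells, of which bta-miR-206 had authors' means of 127629 (RSV) and 139464 (DMSO) normalized reads and bta-miR-1 had 28912 and 30883. Most myogenic mRNAs of the marker list, MYOD1 and MYOG included, had no name here and could not be checked. The fibroblast marker PDGFRA was also read in every mRNA library, with values given below. RSV library C of the miRNA set stood apart from RSV libraries A and B in some miRNAs. One of these was bta-miR-378b, with 134 normalized reads in RSV library C against 11.03 and 10.05 in A and B and 117 to 128 under DMSO. For bta-miR-33a the values without each library are therefore given.

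bta-miR-33a was lower in all 3 RSV libraries than in any DMSO library, at a very low read number. RSV libraries A, B and C held 6, 4 and 2 of its reads, which are 3.89, 3.09 and 2.14 normalized reads. DMSO libraries A, B and C held 12, 11 and 3 reads, which are 13.02, 13.36 and 4.12 normalized reads. DMSO libraries A and B were thus the high ones, and DMSO library C lay 0.223 normalized reads above the highest RSV library. The 95% exact Poisson interval of DMSO library C ran from 0.849 to 12.0 normalized reads and that of RSV library A from 1.43 to 8.47, so at this depth those libraries could not be told apart. Poisson intervals cover counting error only, since reads were not counted by molecular identifiers.

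**Figure D1:**
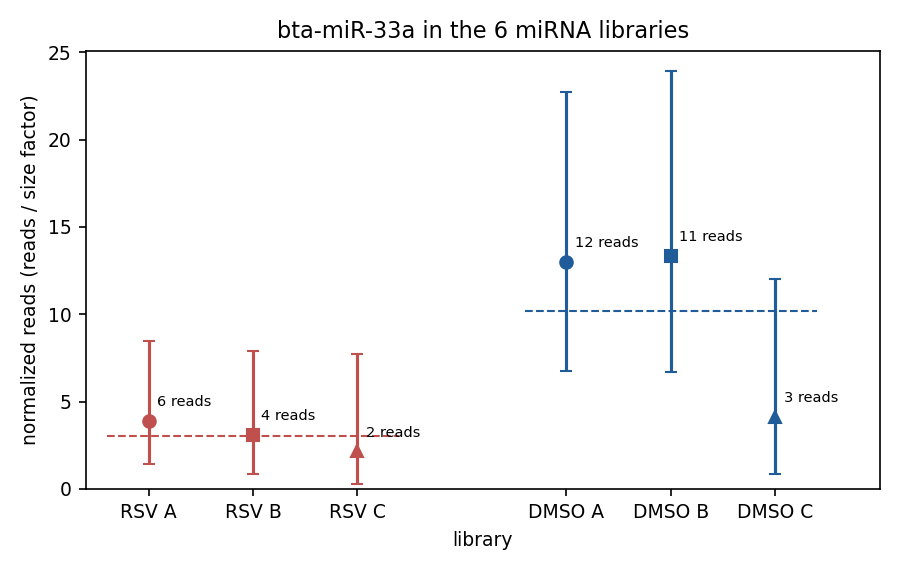
Normalized reads of bta-miR-33a (vertical axis, reads divided by size factor) in the 3 RSV and 3 DMSO miRNA libraries, with 95% exact Poisson intervals as bars, the whole reads beside each point and the authors' group means as dashed lines. The RSV libraries lie between 2.14 and 3.89, DMSO library C at 4.12, and DMSO libraries A and B at 13.02 and 13.36.

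The authors' means were 3.04 ± 0.878 (SD, n = 3) normalized reads for RSV and 10.2 ± 5.24 (SD, n = 3) for DMSO, a 3.34-fold difference. Pooled over libraries, 12 reads in the RSV group and 26 in the DMSO group gave a rate ratio of RSV over DMSO of 0.303, with a 95% counting interval of 0.139 to 0.622. That interval treats the libraries of a group as 1 sample and leaves out the spread between cultures. A two-sided exact permutation test of the 6 normalized values gave p = 0.10, below which 3 libraries against 3 cannot go.

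limma voom, a linear model on log2 reads weighted by their precision, was fitted on 241 miRNAs. These had recovered reads and averaged 5 normalized reads or more. The 198 miRNAs without recovered reads, all with means of 137 or more, were not in the fit, the adjustment or the ranks. bta-miR-33a had a log2 fold change (RSV over DMSO) of -1.52 (SE 0.55, 95% interval -2.76 to -0.28). This is a fitted level 2.87-fold lower in the RSV group (interval 1.22 to 6.78). Its limma voom p was 0.0212 before adjustment, which ranked 37 of 241, and 56 of the 241 had an unadjusted p under 0.05. After Benjamini-Hochberg adjustment over the 241 miRNAs it was 0.136, so bta-miR-33a was not called at 0.05. limma voom called 14 of the 241 miRNAs (5.81%), 8 higher and 6 lower in the RSV group. bta-miR-2310 and bta-miR-1814c, both among those called lower, had identical values, so the same values were counted under both names. All 3 RSV libraries lay below all 3 DMSO libraries in 27 of the 241 (11.2%), so the lack of overlap in bta-miR-33a was shared with about that share of the miRNAs tested.

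Leaving out 1 library at a time moved the fold change and the adjusted p of bta-miR-33a. Without DMSO library C, the library with 3 reads, the log2 fold change was -1.97 and the limma voom adjusted p 0.0602. Without DMSO library A the log2 fold change was -1.27 and the adjusted p 0.351, and without DMSO library B they were -1.27 and 0.292. Without RSV library A they were -1.71 and 0.265, and without RSV library B -1.56 and 0.224. Without RSV library C, the one that stood apart in bta-miR-378b, they were -1.38 and 0.189. The direction was the same in all 6 fits that left out 1 library, and none passed the threshold. With library totals in place of the size factors the log2 fold change was -1.58.

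bta-miR-33a was among the less abundant miRNAs, for which the error of a fold change was wider. Its mean over both groups was 6.60 normalized reads, which ranked 418 of 765 miRNAs, below the median of 11.6. It made up 0.458 ppm of the summed authors' means of all miRNAs for RSV and 1.38 ppm for DMSO. Among the 48 tested miRNAs with a mean under 10 the median SE of the log2 fold change was 0.46, against 0.23 over all 241. None of the 48 was called by limma voom (0), and limma trend on log2 normalized reads also called 0. In limma voom 4 of the 48 had an unadjusted p under 0.05, against 56 of all 241. The least abundant miRNAs that were called, bta-miR-2310 and bta-miR-1814c with their identical values, had a mean of 38.7 normalized reads. In 4 of the 48 all RSV libraries lay below all DMSO libraries, and in 2 of them all lay above.

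Ranked from the lowest fold change, bta-miR-33a was 5 of 241, and the groups of the 4 miRNAs below it overlapped. These were novel_772, bta-miR-378b, novel_592 and bta-miR-150, and in each RSV library C was far above RSV libraries A and B. In novel_772, which is next to bta-miR-33a in abundance, the RSV libraries A, B and C held 0, 0 and 11 reads and the DMSO libraries 8, 10 and 5. The 3 RSV values of bta-miR-33a, by contrast, lay between 2.14 and 3.89 normalized reads, though they rest on 6, 4 and 2 reads. Of the 4 miRNAs below it, bta-miR-378b alone was called (limma voom adjusted p 0.0416). The other neighbours in abundance were bta-miR-138 with a log2 fold change of -0.34, novel_264 with -0.32 and bta-miR-29d-5p with 0.32, each with overlapping groups.

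**Figure D2:**
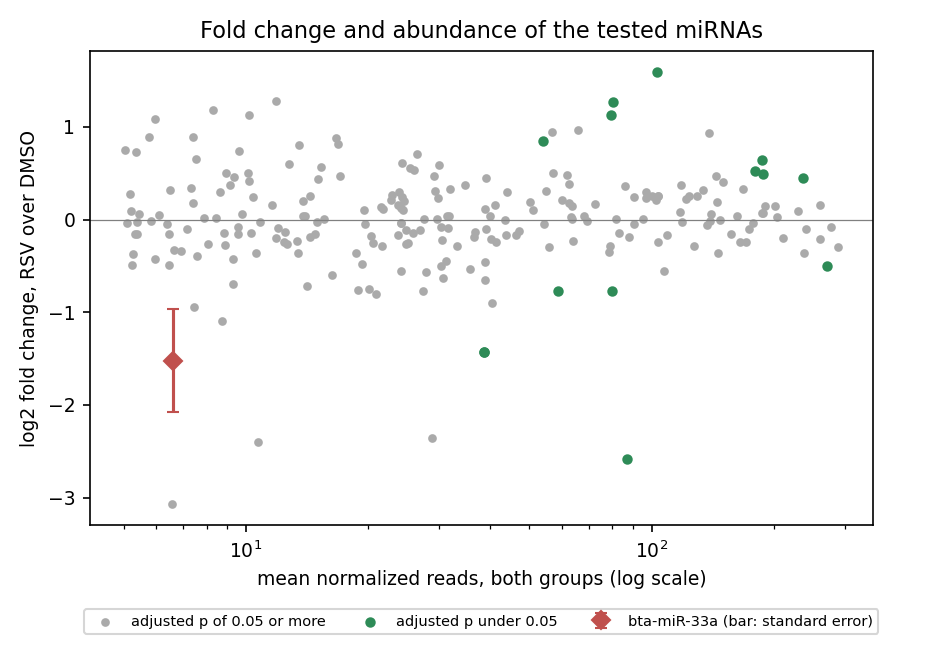
Log2 fold change (RSV over DMSO, limma voom) of the 241 tested miRNAs against their mean normalized reads over both groups (log scale), with bta-miR-33a as a diamond whose bar is its standard error and the 14 called miRNAs in green. bta-miR-33a sits at a mean of 6.60 and a log2 fold change of -1.52, left of the least abundant called miRNA at 38.7.

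The miRNAs whose levels over the 6 libraries were most like those of bta-miR-33a were bta-miR-2285m (Pearson r = 0.961), bta-miR-874 (r = 0.918) and bta-miR-7862 (r = 0.861). The comparison ran over 193 miRNAs with a mean of at least 10, on log2(normalized reads + 1). These coefficients are descriptions over 6 libraries that share their depth with every miRNA in them. In bta-miR-2285m, DMSO libraries A and B had 40.1 and 40.1 normalized reads and DMSO library C had 27.4, with 25.3 to 27.8 under RSV. In bta-miR-874 the DMSO libraries had 142, 140 and 102 and the RSV libraries 98.0, 73.4 and 89.8. All 3 miRNAs shared the lower value of DMSO library C, which follows in part from their choice by likeness to bta-miR-33a. They were not called, at adjusted p-values of 0.191, 0.0989 and 0.171 in limma voom.

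Signs of other cell types also differed among these libraries. The 4 miRNAs of blood cells (bta-miR-451, both arms of bta-miR-142 and bta-miR-223) summed to 72.7, 465 and 183 normalized reads in RSV libraries A, B and C and to 88.9, 65.6 and 130 under DMSO. They did not move together. bta-miR-451 was high in RSV library B (463, against 66.8 in A and 81.3 in C). The bta-miR-142 arms were high in RSV library C, at 35.3 (3p) and 66.3 (5p). bta-miR-223 went the other way, with 1.08, 3.64 and 9.60 normalized reads in DMSO libraries A, B and C. It had 0 reads in every RSV library, which allows up to 1.95, 2.32 and 3.21 normalized reads (3 reads each). The liver miRNA bta-miR-122, known to raise cholesterol synthesis in hepatocytes, had 200, 26.3 and 38.5 in RSV libraries A, B and C and 26.0, 17.0 and 87.8 under DMSO. The endothelial bta-miR-126-5p lay between 8.68 and 10.98 in all 6. The more abundant arm, bta-miR-126-3p, had authors' means of 296 (RSV) and 265 (DMSO). Its DMSO libraries A, B and C had 234, 249 and 311, and its RSV reads were not recovered, so it was not tested. The part of these in the level of bta-miR-33a was not tested.

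Other miRNAs described as acting on sterol genes had, as a list, a median near that of all miRNAs. Of 18 names 17 were found, in 18 table rows, and the median log2 ratio of the authors' means over the 16 with a mean of at least 10 was 0.02, against 0.00 over all 391 such miRNAs. Reads were recovered for 7 of the 18, and limma voom called 0 of the 6 tested. An unadjusted p under 0.05 was found in 2 of the 6, against 56 of all 241. limma trend called 1 of the 6, bta-miR-182, whose gene cluster is known to be switched on by SREBP-2. bta-miR-182 had 78.5, 57.2 and 90.9 normalized reads under RSV and 49.9, 29.1 and 35.7 under DMSO, so the groups did not overlap. Its log2 fold change was 0.94 and its limma voom adjusted p 0.0505. Its cluster partners gave 0.61 for bta-miR-183 (adjusted p 0.136) and -0.15 for bta-miR-96 (adjusted p 0.844) in limma voom. The abundant bta-miR-148a and bta-miR-27b, both known to act on cholesterol handling genes, had log2 ratios of the authors' means of -0.22 and -0.22, with no test.

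The mRNA libraries were read for the host and the pathway around it. Gene symbols were taken from the study's list of changed genes alone, so that every named mRNA tested, 932 lower and 758 higher in the RSV group, was also called by limma voom. The direction, the call and any lack of group overlap of each gene below follow in part from that choice and are a description. The share of all mRNAs without overlap between the groups is not given here. Genes with no name here were not analysed. limma voom tested the 14755 mRNAs with recovered reads and a mean of 10 normalized reads or more. It called 2558 (17.3%) lower and 2474 (16.8%) higher at an adjusted p under 0.05. In bulk RNA, fewer cells of a type and less RNA per cell cannot be told apart.

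SREBF2 (ENSBTAG00000014265), the gene that carries bta-miR-33a, was lower in the RSV group. RSV libraries A, B and C had 6691, 7617 and 5039 normalized reads, and DMSO libraries A, B and C had 9610, 11243 and 10523. The groups did not overlap, and RSV library C was the lowest. The log2 fold change was -0.72 (SE 0.14, limma voom adjusted p 0.0070), a 1.62-fold difference between the authors' means. Without RSV library C it was -0.55, and leaving out each library in turn gave a range of -0.85 to -0.55 with every adjusted p under 0.05. The mean of such an abundant mRNA had lost its decimal point in the deposited table, and 0.154 combinations of whole reads would be found by chance for its DMSO mean, so its reads rest on a less certain recovery than those of bta-miR-33a. Set side by side, the log2 fold change in limma voom was -1.52 (interval -2.76 to -0.28) for the miRNA and -0.72 (interval -1.03 to -0.40) for its host. The intervals overlap, and the difference between the fold changes was not tested, since the libraries are not linked. SREBF1, the gene that carries bta-miR-33b, was not analysed here.

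The sterol synthesis mRNAs, the main targets of the SREBF2 protein, were lower in the RSV group. Of 19 genes listed 15 had a name (78.9%), 14 of these were called lower and 1 higher, and the median log2 fold change was -1.55, against 0.00 over all tested mRNAs and -0.40 over all named ones. PMVK, FDPS, TM7SF2 and LBR had no name. HMGCS1, which makes the precursor HMG-CoA, had 1797, 2566 and 1264 normalized reads in RSV libraries A, B and C and 9227, 9808 and 9520 under DMSO. Its log2 fold change of -2.40 (SE 0.21) was the lowest of the list. CYP51A1, which removes a methyl group from lanosterol, had 1361, 1693 and 812 under RSV and 4621, 4730 and 4841 under DMSO, a log2 fold change of -1.94 (SE 0.22). In both mRNAs the 3 DMSO libraries lay close together and RSV library C was the lowest.

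The lower levels ran through early and late steps of the pathway, with EBP as the exception. ACAT2, which joins acetyl-CoA units ahead of HMGCS1, changed by -1.78 on the log2 scale, and the mevalonate enzymes MVK and MVD by -0.95 and -1.31. IDI1, which makes the active isoprene unit, changed by -1.87. The steps that form and close squalene, FDFT1, SQLE and LSS, changed by -1.32, -1.55 and -1.47. Of the enzymes that trim the sterol after CYP51A1, MSMO1 changed by -1.70, and NSDHL and HSD17B7 by -1.83 and -0.97. The late enzymes SC5D and DHCR7 changed by -0.94 and -1.86. EBP, the sterol isomerase, was higher, with 345, 375 and 411 normalized reads under RSV and 254, 262 and 274 under DMSO, a log2 fold change of 0.51 (limma voom adjusted p 0.0066).

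**Figure D3:**
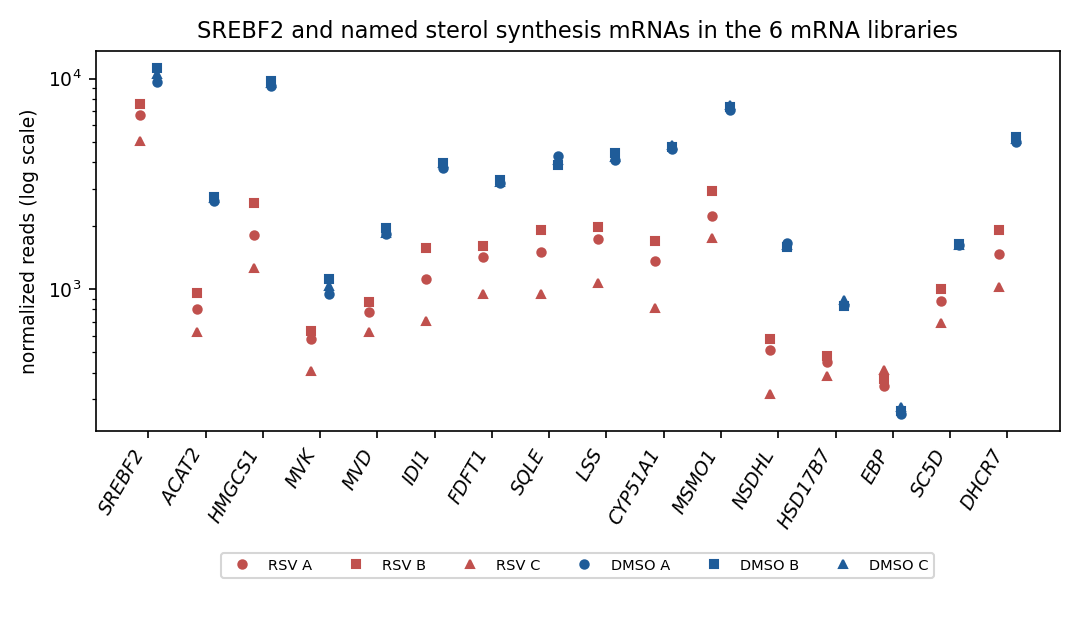
Normalized reads (log scale) of SREBF2 and the 15 named sterol synthesis mRNAs in the 3 RSV and 3 DMSO mRNA libraries, in pathway order, with library A as circles, B as squares and C as triangles. In 14 of the 15 enzymes every RSV library lies below every DMSO library, and EBP lies the other way. The names come from the study's list of changed genes, so this separation follows in part from that choice. RSV library C is the lowest RSV value in 14.

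The RSV libraries ordered themselves alike across the pathway. RSV library C of the mRNA set, which is not known to be the culture of miRNA library C, held the lowest RSV value in 14 of the 15 and RSV library B the highest in 14. RSV library C was also the lowest in 772 of the 932 named mRNAs called lower (82.8%), so its low place was not particular to the sterol genes. How often RSV library B alone was the highest among them is not given here. All 14 were called lower in each of the fits that left out 1 library, RSV library C included.

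Sterol sensing and uptake had a name for 4 of 12 genes, of which 3 were called lower and 1 higher. INSIG1, which holds the SREBP complex in the endoplasmic reticulum, had a log2 fold change of -0.49, with 1831 to 2100 normalized reads under RSV and 2723 to 2804 under DMSO. VLDLR, a lipoprotein receptor, had -0.73. SCAP, the escort that carries SREBPs to the Golgi, had 0.39, with 3897 to 4299 under RSV and 2902 to 3311 under DMSO. INSIG2 and the site proteases MBTPS1 and MBTPS2 had no name here.

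The described targets of miR-33 went both ways. In sterol export 1 of 5 had a name, ATP8B1, a phospholipid flippase, and it was lower, with 558, 637 and 418 normalized reads under RSV and 769, 791 and 792 under DMSO. Its log2 fold change of -0.56 had a limma voom adjusted p of 0.015, which rose to between 0.0541 and 0.0596 when any 1 DMSO library was left out, so that its call was lost each time. ABCA1, ABCG1, NPC1 and ABCB11 had no name here and were not analysed.

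In fatty acid oxidation and energy sensing 3 of 8 targets had a name, 2 of them higher and 1 lower. CPT1A, which admits fatty acids to the mitochondria for oxidation, had 871, 846 and 1086 normalized reads under RSV and 440, 469 and 419 under DMSO, a 2.11-fold difference between the authors' means and a log2 fold change of 1.07 (SE 0.11, limma voom adjusted p 0.000641). IRS2, an insulin receptor substrate, had 1714 to 2200 under RSV and 1165 to 1344 under DMSO, a log2 fold change of 0.60. PPARGC1A, a coactivator of mitochondrial genes, went the other way, with 34.0, 39.7 and 56.0 under RSV and 105, 90.7 and 107 under DMSO, a log2 fold change of -1.24. In each of the 3 the groups did not overlap, which follows in part from the choice of named genes. CROT, HADHB, PRKAA1, SIRT6 and NCOA1 had no name here.

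The lipogenic SREBP targets were all lower where a name was at hand, in 7 of 11 genes with a median log2 fold change of -0.84. ELOVL6, which lengthens fatty acids, had the lowest at -1.57, with 326 to 518 normalized reads under RSV and 1131 to 1246 under DMSO. ACSS2 and ACLY, which supply acetyl-CoA, had -1.45 and -0.84. The desaturases FADS2, SCD and FADS1 had -1.22, -0.79 and -0.66. FASN, the fatty acid synthase, had the change nearest 0 at -0.38, with 6196 to 7383 under RSV and 8428 to 8846 under DMSO.

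**Figure D4:**
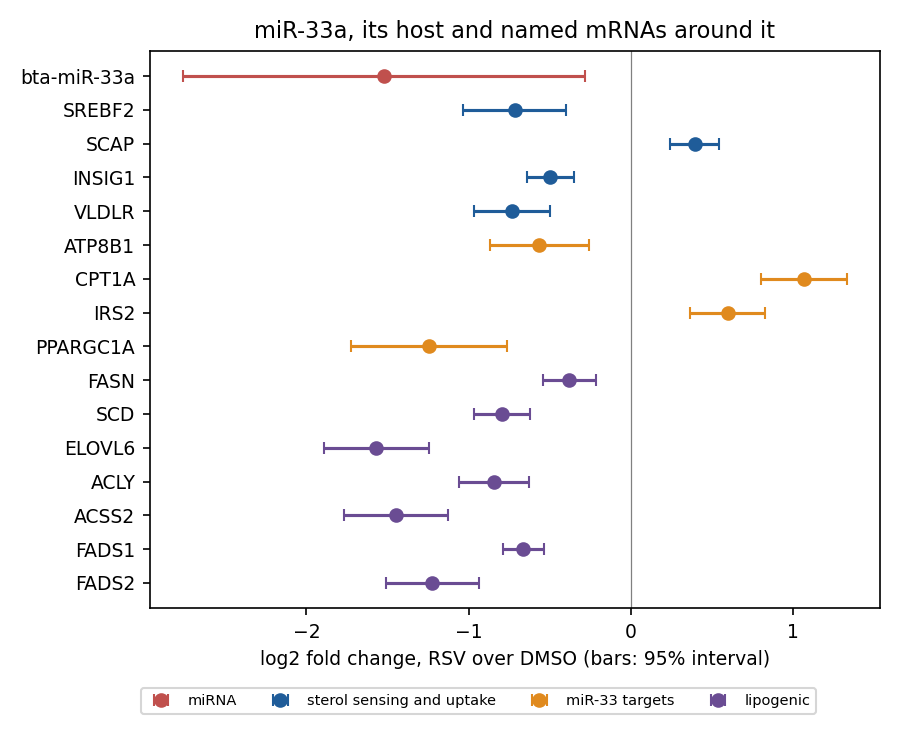
Log2 fold change (RSV over DMSO, limma voom) with its 95% interval for bta-miR-33a, its host SREBF2 and the named mRNAs of sterol sensing and uptake, of described miR-33 targets and of the lipogenic list. The interval of bta-miR-33a, from -2.76 to -0.28, is the widest, and SCAP (0.39), CPT1A (1.07) and IRS2 (0.60) are the mRNAs right of 0.

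Among cell type markers in the mRNA libraries, 2 of 10 myogenic genes had a name and TNNT1, a slow muscle troponin, was tested. It had 3587 to 3982 normalized reads under RSV and 2237 to 2654 under DMSO, a log2 fold change of 0.60. Of 5 fibroblast genes 3 had a name and PDGFRA was tested. PDGFRA had 6697 to 7277 under RSV and 9068 to 9381 under DMSO, a log2 fold change of -0.42. None of the endothelial, adipocyte and leukocyte markers had a name (0 of 3, 0 of 3 and 0 of 2). The part of these in the lipid gene differences was not tested.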

How the data were processed

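Total RNA of 6 cultures (3 RSV, 3 DMSO, grouped by the treatment label) was sequenced for mRNA and for miRNA. The authors mapped miRNA reads to UMD_3.1.1 (bosTau8) with Bowtie 0.12.9, named known miRNAs by miRBase and others by miRDeep2, and compared the groups with DESeq. The mRNA aligner and counting tool are not given in the sources used here. The deposited values are normalized read counts (reads over a size factor), averaged by the authors per group, and single samples have no column. The fold changes, p-values and adjusted p-values of the authors' own comparison in the same table were not used.

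In most mRNA means from 1 upward the decimal point was missing, and the smallest decimal place that gave whole reads was taken. Means were searched up to 20000 (mRNA) and 400 (miRNA) normalized reads, and a combination was accepted where fewer than 0.2 (mRNA) or 0.5 (miRNA) would be found by chance. In simulated means, 987 of 989 for RSV and 990 of 990 for DMSO mRNAs, and 945 of 945 and 936 of 936 for miRNAs, were returned right among those settled. The 198 miRNAs without recovered reads had means of 137 or more and were given as authors' means with no test. Recovered mRNA reads summed to 11303295 to 13452445 per library. Recovered miRNA reads summed to 10104 to 22048, which leaves out the abundant miRNAs and is not the depth.

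Testing used voom of limma 3.58.1 in R 4.3.3, with library sizes set by the size factors, a minimum mean of 5 (miRNA) or 10 (mRNA) normalized reads and Benjamini-Hochberg adjustment over all features tested. In simulated reads 40 of 241 miRNAs were given a log2 change of 1.5. Of these 37 were recovered, 6 of 9 of those with a mean under 10, with 1 false call. The spread between simulated libraries was 1 fixed setting for every feature and was not taken from these data. These shares therefore check the fit and do not give its power in the real libraries. For mRNAs 197 of 200 were, with 8 false calls. Reads were recovered with numba 0.67.0 and numpy 2.4.6 under Python 3.11.15, tables were made with pandas 2.3.3, exact tests with scipy 1.17.1 and figures with matplotlib 3.10.9.

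The members, the gene lists and the tests were chosen with earlier results of these data known. Symbols came from the study's list of changed genes (1781 symbols). The RefSeq table (ARS-UCD2.0) matched 0 of the Ensembl identifiers. Some listed genes are not reported here and are left out of the list counts. Named were the member, its host, all named genes of the lists, the 3 miRNAs most like the member and its 2 neighbours in abundance on each side. The miRNAs with lower fold changes than the member, bta-miR-378b among them, were named after their values were seen. Alternatives were limma trend with pseudocounts of 0.5, 1 and 0.1, library totals, other minimum means, a threshold of 0.1, the ratio of the authors' means, and each library left out.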

Additional observations from a re-analysis of the deposited data

How the results depend on the processing

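bta-miR-33a kept its direction and stayed short of the 0.05 threshold in all 12 alternatives, with log2 fold changes of -1.97 to -1.27 when 1 library was left out and of -1.58 to -1.34 in the others, and limma adjusted p-values of 0.0602 to 0.351. With a minimum mean of 10 it was not tested. The number of miRNAs called, 14 of 241, was 22 of 567 with no minimum mean, 18 at a threshold of 0.1 and 3 to 17 with 1 library left out. It was 9 without RSV library A, 4, 3 and 3 without DMSO libraries A, B and C, and 17 without RSV library C. SREBF2 kept its direction and its call (adjusted p 1.18e-06 to 0.0398), and 14 of 15 sterol synthesis mRNAs were called lower in all 11 alternatives. The 5032 mRNAs called became 2523 to 6262 with 1 library left out, with 2669, 2747 and 2523 without DMSO libraries A, B and C. Of 319 tested results for 29 other mRNAs, 316 kept direction and call, and the 3 that did not were those of ATP8B1. The ratio of the authors' means, which has no test, kept the direction of all 29. Where a value moved, the cause was not tested. Scaling by library totals moved the median of all mRNAs from 0.00 to 0.07 and that of all miRNAs from 0.00 to -0.05. No paired analysis was possible because the recovered libraries carry no replicate number. bta-miR-33a rests on 12 reads against 26, which limits the precision of its fold change.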
